A study of Homo sapiens with 6 samples.

Results

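The HSP70 and HSP110 chaperone genes of 2 cellular compartments were followed through RNA-seq of a human colorectal cancer line, HCT116, given small interfering RNAs (siRNAs) named for the long noncoding RNA LINC01534. The members were chosen by name, with earlier results of these data known, and are 10 of the 26255 genes in the files. They were the 3 genes of the endoplasmic reticulum (ER), HSPA5, HYOU1 and HSPA13, and the 7 cytosolic genes HSPA1A, HSPA1B, HSPA8, HSPA14, HSPA4, HSPA4L and HSPH1. All 10 passed the filter on low values, a mean of at least 1 FPKM over the 6 libraries, as did 12203 genes in all. FPKM are fragments scaled to transcript length and library size. Comparison between genes thus rests on the transcript lengths used and on how reads shared between genes are assigned.

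The libraries formed 3 groups of 2, the parent cells and 1 group for each siRNA, siLINC01534-1 and siLINC01534-2. All came from the same cell line. No transfection of the parent cells is described, and libraries of cells given a negative control siRNA were not analysed here, so that transfection and the siRNA's sequence cannot be told apart. The methods name 3 cultures where the labels number 2 libraries per group, and neither ties a library to a culture, so that p-values measure the spread between these libraries, which may be technical. LINC01534 itself was at 0.285 and 0.571 FPKM in the parent libraries, at 0 and 0.283 FPKM with siLINC01534-1, and at 0.660 and 0.551 FPKM with siLINC01534-2. The libraries labelled siLINC01534-2 thus overlapped the parent libraries, all values were under 1 FPKM, and groups are named by their labels. By quantitative PCR in HCT116 cells, the study reports less LINC01534 with each siRNA than with a negative control siRNA. That is another measure and another comparison than the FPKM given here.

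HSP70 proteins are ATP-driven chaperones that bind unfolded stretches of client proteins and release them in a cycle. J-domain proteins bring clients and start ATP hydrolysis, and nucleotide exchange factors reset the cycle. HSP110 proteins are distant HSP70 relatives that act mainly as such exchange factors. HSPA5, also called BiP, is the main HSP70 of the ER and HYOU1 is its HSP110 partner, and both are classical targets of the unfolded protein response. HSPA8 is the constitutive HSP70 of the cytosol, HSPA1A and HSPA1B are the heat-inducible ones, and cytosolic heat-inducible chaperones are classical targets of heat shock factor.

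The sequence before the transcription start is shown first for the members that hold a known stress element there, because ER and cytosolic stress act through different elements. Promoter sequences, from 250 bases before to 50 bases after the start, were taken from RefSeq (GRCh38.p14) for 9 of the 10 members and placed in GRCh37 (hg19), the build of the files, by exact match. HSPA14 had none in the table. A search on both strands looked for exact letters, so that variants of an element were neither counted nor marked. It covered 3 motifs. They were the ER stress element ERSE (CCAAT, then 9 bases of any kind, then CCACG), ERSE-II (ATTGG, then 1 base of any kind, then CCACG) and a heat shock element (GAA, TTC and GAA, each 2 bases of any kind apart). Among 35116 promoters of the same length, 27 held ERSE (0.0769%), 19 held ERSE-II (0.0541%) and 172 held the heat shock element (0.49%). HSPA5 held 1 ERSE, from 66 to 48 bases before the start, and HYOU1 held 2 ERSE-II, both on the strand opposite to the gene's, from 185 to 175 and from 79 to 69 bases before it. In the following sequences, written 5′ to 3′ on the strand of the gene and cut where an annotated exon begins, capitals mark these matches. The first lies at chr9:128003662-128003872 and the second at chr11:118927939-118928166, both on the minus strand of GRCh37.
HSPA5: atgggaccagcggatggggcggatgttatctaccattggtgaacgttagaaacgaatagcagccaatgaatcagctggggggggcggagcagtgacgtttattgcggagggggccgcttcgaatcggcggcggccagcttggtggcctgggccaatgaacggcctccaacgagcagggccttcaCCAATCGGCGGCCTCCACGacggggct
HYOU1: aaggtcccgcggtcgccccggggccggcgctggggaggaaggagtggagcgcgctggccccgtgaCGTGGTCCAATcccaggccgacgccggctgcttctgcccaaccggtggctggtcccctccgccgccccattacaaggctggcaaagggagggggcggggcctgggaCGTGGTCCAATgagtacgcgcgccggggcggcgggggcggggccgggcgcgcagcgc

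HSPA8 held 2 heat shock elements, from 230 to 218 bases before the start on the gene's own strand and from 55 to 43 bases before it on the opposite strand. Only the matches, in capitals, with 8 bases on each side are shown, at chr11:122933054-122933082 and chr11:122932879-122932907, written on the gene's strand, the minus strand of GRCh37, because the annotation places an exon over this window.
HSPA8 distal: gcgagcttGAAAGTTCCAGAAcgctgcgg
HSPA8 proximal: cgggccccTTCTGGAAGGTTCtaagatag

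The other 6 members with a promoter sequence held 0 matches to the 3 motifs, which says only that these letters do not stand in those windows. HSPA1A and HSPA1B are shown because their upstream sequences are nearly the same, with 235 of 251 alignment positions (93.6%) identical. Capitals mark the positions at which they differ. The sequences lie on the plus strand at chr6:31783070-31783319 and chr6:31795265-31795514.
HSPA1A: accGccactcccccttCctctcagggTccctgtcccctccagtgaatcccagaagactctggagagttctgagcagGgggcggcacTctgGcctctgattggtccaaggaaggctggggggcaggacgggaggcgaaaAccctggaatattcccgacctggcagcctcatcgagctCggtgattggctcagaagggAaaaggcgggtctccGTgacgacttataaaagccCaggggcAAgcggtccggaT
HSPA1B: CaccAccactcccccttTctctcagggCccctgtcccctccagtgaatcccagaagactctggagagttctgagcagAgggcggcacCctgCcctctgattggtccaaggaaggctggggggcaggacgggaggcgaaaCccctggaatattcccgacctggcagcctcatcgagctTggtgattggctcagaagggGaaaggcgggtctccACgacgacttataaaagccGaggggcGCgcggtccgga

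In the parent cells, HSPA8 was the most abundant member at 1870 ± 16.6 FPKM (SD, n = 2) and made up 71.4% of the FPKM summed over the 10 genes. HSPA5 followed with 9.71%, HSPA4 with 6.14%, HSPH1 with 3.87%, HYOU1 with 3.49% and HSPA1B with 2.92%. HSPA14, HSPA4L, HSPA13 and HSPA1A each gave 1.37% or less. No neighbours in this order overlapped between the libraries of parent cells, nor in those of either siRNA. With siLINC01534-1 and siLINC01534-2 alike, HYOU1 stood above HSPA4 and HSPH1, and with siLINC01534-2 HSPA13 also stood above HSPA4L. The plot of FPKM by library shows all 10 genes.

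**Figure D1:**
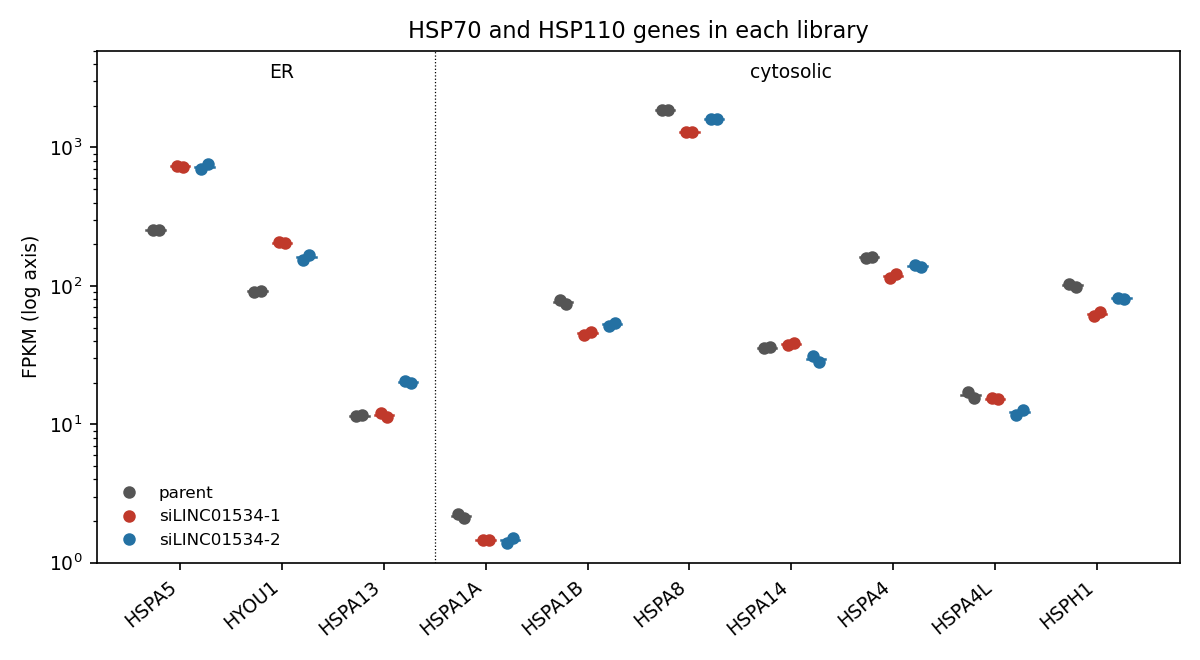
FPKM of the 3 ER and 7 cytosolic HSP70 and HSP110 genes on a log axis, 1 point per library and a short line at each group's mean. HSPA5 and HYOU1 lie higher in all 4 siRNA libraries than in the parent libraries, while HSPA8, HSPA4, HSPH1, HSPA1B and HSPA1A lie lower. With 2 libraries per group, groups can lie apart without a call, as for HSPA14 with siLINC01534-1 (limma adjusted p = 0.283). The share of all tested genes that lie apart in this way is not given here.

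Each siRNA was compared with the parent cells on log2(FPKM + 1) with limma, and a gene was called at a Benjamini-Hochberg adjusted p under 0.05 over all 12203 genes. With siLINC01534-1, 2 of the 10 members were called higher and 5 lower, beside 21.8% of all tested genes called higher and 24.5% called lower. With siLINC01534-2, 3 members were called higher and 7 lower, beside backgrounds of 11.1% higher and 11.8% lower. The 7 lower calls of this comparison became 2 without parent replicate 1 or 2, 4 without siLINC01534-1 replicate 1 or 2, 3 without siLINC01534-2 replicate 1 and 1 without siLINC01534-2 replicate 2, while the 3 higher calls held in each. The calls over all genes went from 2788 to between 857 and 1931 in the same fits. For the mean of both siRNAs, 3 members were higher and 6 lower, beside 17.1% higher and 20.1% lower. The direction of the calls followed the compartment. All genes called higher against the parent cells were ER members and all called lower were cytosolic, with each siRNA and for their mean. That mean averages the single-siRNA comparisons and is no further evidence of direction. HSPA13, called higher for it at a log2 fold change of 0.38, was at 0.01 with siLINC01534-1 and 0.75 with siLINC01534-2. The members were chosen with earlier results of these data known, so these counts describe them and are not a test. The median log2 fold change of the ER members was 1.16 with siLINC01534-1 and 0.81 with siLINC01534-2, that of the cytosolic members was -0.45 and -0.32, and that of all tested genes was 0.00 in both. Both comparisons use the same parent libraries and are not independent.

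**Figure D2:**
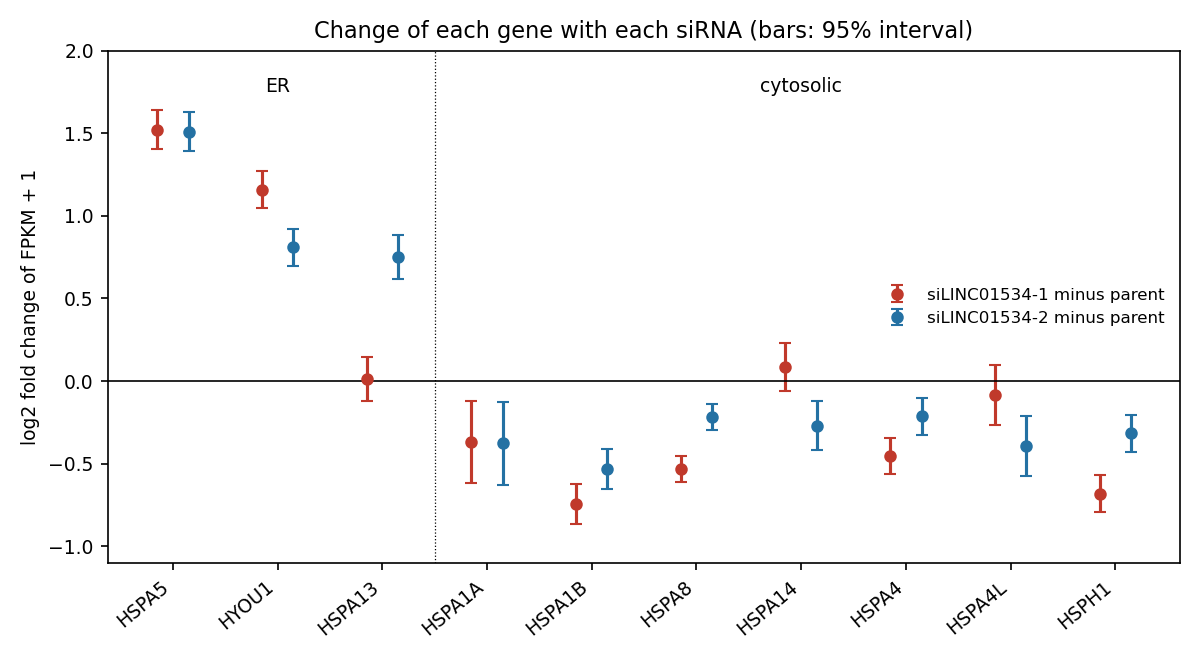
Log2 fold change of FPKM + 1 against the parent cells for each gene, by siRNA, with 95% intervals from the limma fit. The ER genes lie at or above 0 and the cytosolic genes below it, except HSPA14 with siLINC01534-1 at 0.09.

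Among the ER members, HSPA5 (chr9:127997132-128003661, minus strand) changed most. It was at 255 and 254 FPKM in the parent libraries, at 740 and 724 FPKM with siLINC01534-1 and at 695 and 757 FPKM with siLINC01534-2. All 4 siRNA libraries lay above both parent libraries. Mean FPKM was 2.88 times that of the parent cells with siLINC01534-1 and 2.86 times with siLINC01534-2. The log2 fold changes were 1.52 (SE 0.0473, limma adjusted p = 4.67e-05) and 1.51 (SE 0.0473, adjusted p = 0.000148). The siRNAs overlapped each other for HSPA5, with a log2 difference between them of 0.01 (95% interval -0.10 to 0.13, adjusted p = 0.846).

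HYOU1 (chr11:118914899-118927938, minus strand), the exchange factor of HSPA5, was at 90.6 and 92.3 FPKM in the parent libraries. It reached 208 and 203 FPKM with siLINC01534-1, and 155 and 167 FPKM with siLINC01534-2. All 3 groups were apart from each other. The log2 fold changes were 1.16 (SE 0.0451, adjusted p = 7.18e-05) and 0.81 (SE 0.0451, adjusted p = 0.000689). The ratio within this pair also differed between the groups, although no test of it was run. FPKM of HSPA5 per FPKM of HYOU1 was 2.78 ± 0.0461 in the parent cells, 3.57 ± 0.00646 with siLINC01534-1 and 4.51 ± 0.0320 with siLINC01534-2 (SD, n = 2 each), with no overlap between groups.

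HSPA13 (chr21:15743436-15755805, minus strand), a small HSP70 of microsomes, was called with siLINC01534-2 and not with siLINC01534-1. It was at 11.5 and 11.6 FPKM in the parent libraries, at 12.1 and 11.2 FPKM with siLINC01534-1 and at 20.5 and 19.8 FPKM with siLINC01534-2. With siLINC01534-1, 1 library was above and 1 below both parent libraries, with a log2 fold change of 0.01 (95% interval -0.12 to 0.15, adjusted p = 0.866), which was -0.04 without siLINC01534-1 replicate 1. With siLINC01534-2 it rose by 0.75 (SE 0.0536, adjusted p = 0.00154). The calls of HSPA5 and HYOU1 with both siRNAs and of HSPA13 with siLINC01534-2 held with each library left out in turn.

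Among the cytosolic HSP70 genes, HSPA8 (chr11:122928197-122933938, minus strand) lost the most FPKM. It was at 1858 and 1881 FPKM in the parent libraries, at 1290 and 1295 FPKM with siLINC01534-1 and at 1616 and 1597 FPKM with siLINC01534-2. The 3 groups did not overlap. The mean was 0.692 times that of the parent cells with siLINC01534-1 and 0.859 times with siLINC01534-2. The log2 fold changes were -0.53 (SE 0.0311, adjusted p = 0.000198) and -0.22 (SE 0.0311, adjusted p = 0.00893). The call with siLINC01534-2 was lost without parent replicate 2 (log2 fold change -0.21, adjusted p = 0.0548) or siLINC01534-2 replicate 2 (-0.21, adjusted p = 0.0618). These bulk libraries cannot tell fewer cells that express a gene from less RNA per cell.

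HSPA1B (chr6:31795515-31798031, plus strand) was at 79.0 and 74.2 FPKM in the parent libraries, at 44.3 and 46.4 FPKM with siLINC01534-1 and at 51.6 and 53.7 FPKM with siLINC01534-2. It fell with both siRNAs, by 0.74 (SE 0.0488, adjusted p = 0.000267) and by 0.53 (SE 0.0488, adjusted p = 0.00272) on the log2 scale. HSPA1A (chr6:31783320-31785723, plus strand) was at 2.27 and 2.10 FPKM in the parent libraries, at 1.47 and 1.46 FPKM with siLINC01534-1 and at 1.39 and 1.51 FPKM with siLINC01534-2. It was also below the parent libraries in all 4 siRNA libraries, with log2 fold changes of -0.37 (SE 0.10, adjusted p = 0.0298) and -0.38 (SE 0.10, adjusted p = 0.0480). For so low a gene the log2(FPKM + 1) scale understates the change, and its mean FPKM was 0.670 and 0.664 times that of the parent cells. The pair is uncertain gene by gene. Of the 75-base windows of the longest transcript, 73.8% for HSPA1A and 73.3% for HSPA1B also occur in another gene. How the authors' counting shared such reads is not given in the sources used here. With HSPA1A and HSPA1B summed, the log2 fold change was -0.74 (limma adjusted p = 0.000272) with siLINC01534-1 and -0.53 (adjusted p = 0.00268) with siLINC01534-2. HSPA1A was 2.77% of that sum in the parent cells. About 31 to 50 reads stood behind HSPA1A in a library. Its call with siLINC01534-1 was lost without parent replicate 1 (adjusted p = 0.0811), siLINC01534-1 replicate 1 (0.0599) or siLINC01534-1 replicate 2 (0.0597). Its call with siLINC01534-2 was lost with any one of the 6 libraries left out, at adjusted p of 0.0553 to 0.128, and that for the mean of both without parent replicate 1 (0.0826) or parent replicate 2 (0.0534).

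HSPA14 (chr10:14880305-14913740, plus strand), an HSP70 bound to ribosomes, moved apart between the siRNAs. It was at 35.4 and 36.4 FPKM in the parent libraries, at 37.3 and 38.9 FPKM with siLINC01534-1 and at 31.1 and 28.1 FPKM with siLINC01534-2. With siLINC01534-1 its log2 fold change was 0.09 (95% interval -0.06 to 0.23, adjusted p = 0.283), although both libraries lay above both parent libraries. With siLINC01534-2 it fell by 0.27 (SE 0.0589, adjusted p = 0.0286). That call was lost without parent replicate 1 (adjusted p = 0.102), parent replicate 2 (0.132), siLINC01534-1 replicate 1 (0.0618), siLINC01534-1 replicate 2 (0.0620) or siLINC01534-2 replicate 2 (0.0933). HSPA14 shares 14.5% of its windows with an overlapping gene, MSANTD7.

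The cytosolic HSP110 genes are HSPH1, HSPA4 and HSPA4L, exchange factors of the HSP70 genes above. HSPH1 (chr13:31709110-31736525, minus strand) was at 104 and 98.9 FPKM in the parent libraries, at 61.0 and 64.7 FPKM with siLINC01534-1 and at 81.2 and 81.1 FPKM with siLINC01534-2. The groups did not overlap. HSPH1 fell by 0.68 (SE 0.0444, adjusted p = 0.000262) and by 0.32 (SE 0.0444, adjusted p = 0.00867) on the log2 scale. The second call was lost without parent replicate 1 (-0.28, adjusted p = 0.0556), siLINC01534-2 replicate 1 (-0.32, adjusted p = 0.0504) or siLINC01534-2 replicate 2 (-0.32, adjusted p = 0.0577).

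HSPA4 (chr5:132387705-132442141, plus strand) was at 159 and 163 FPKM in the parent libraries, at 113 and 121 FPKM with siLINC01534-1 and at 141 and 136 FPKM with siLINC01534-2. Here too the 3 groups were apart. It fell by 0.45 (SE 0.0443, adjusted p = 0.000942) and by 0.21 (SE 0.0443, adjusted p = 0.0246). The second call was lost without parent replicate 1 (adjusted p = 0.0873), parent replicate 2 (0.115), siLINC01534-2 replicate 1 (0.0744) or siLINC01534-2 replicate 2 (0.113).

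HSPA4L (chr4:128702976-128761888, plus strand) was at 17.2 and 15.5 FPKM in the parent libraries, at 15.5 and 15.1 FPKM with siLINC01534-1 and at 11.6 and 12.8 FPKM with siLINC01534-2. It overlapped the parent libraries with siLINC01534-1, at a log2 fold change of -0.08 (95% interval -0.26 to 0.10, adjusted p = 0.389). With siLINC01534-2 it fell by 0.39 (SE 0.0724, adjusted p = 0.0183). That call was lost with any one of the 6 libraries left out, at adjusted p of 0.0505 to 0.0883. For the mean of both siRNAs, HSPA4L was called (adjusted p = 0.0333), but not without parent replicate 1 (0.182), parent replicate 2 (0.0588), siLINC01534-1 replicate 1 (0.0825), siLINC01534-1 replicate 2 (0.0964) or siLINC01534-2 replicate 1 (0.0757).

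HSPA8 was also set against its exchange factors in each library. FPKM of HSPA8 per FPKM of HSPA4 was 11.6 ± 0.112 in the parent cells, 11 ± 0.483 with siLINC01534-1 and 11.6 ± 0.182 with siLINC01534-2. FPKM of HSPA8 per FPKM of HSPH1 was 18.5 ± 0.792, 20.6 ± 0.809 and 19.8 ± 0.144 in the same order (SD, n = 2 each). With 2 libraries per group no test of these ratios was run.

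Summed over the compartments, ER FPKM rose while cytosolic FPKM fell. The sums mostly reflect single genes, since HSPA5 made up 70.9% to 80.2% of the ER sum in a library. HSPA8 made up 81.8% to 83.6% of the cytosolic sum. The 3 ER genes summed to 357 and 357 FPKM in the parent libraries, to 960 and 938 FPKM with siLINC01534-1 and to 871 and 944 FPKM with siLINC01534-2. The 7 cytosolic genes summed to 2254 and 2271, to 1563 and 1583, and to 1934 and 1910 FPKM. With siLINC01534-1 the ER sum gained 592 FPKM and the cytosolic sum fell by 690 FPKM, so that the sum of all 10 was 2522 ± 1.85 FPKM beside 2620 ± 12.3 FPKM in the parent cells (SD, n = 2). With siLINC01534-2 the ER sum gained 550 FPKM and the cytosolic sum fell by 341 FPKM, to a total of 2830 ± 34.9 FPKM.

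The ER share of that sum was 13.7% and 13.6% in the parent libraries, 38.1% and 37.2% with siLINC01534-1 and 31.1% and 33.1% with siLINC01534-2. The mean log2(FPKM + 1) of the ER genes minus that of the cytosolic genes was 0.01 and 0.06 in the parent libraries, 1.38 and 1.28 with siLINC01534-1, and 1.37 and 1.42 with siLINC01534-2. On this scale all genes weigh alike, and the siRNAs overlapped while both were above the parent cells. FPKM of HSPA5 per FPKM of HSPA8 went from 0.136 ± 0.00175 in the parent cells to 0.566 ± 0.0105 and 0.452 ± 0.0311 (SD, n = 2 each). No test was run on these sums, since the genes were chosen with results known. FPKM are relative values, scaled to library size and transcript length. The short RNA gene MIR6723 held 47.1% to 54.7% of the summed FPKM, which is not its share of the reads.

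**Figure D3:**
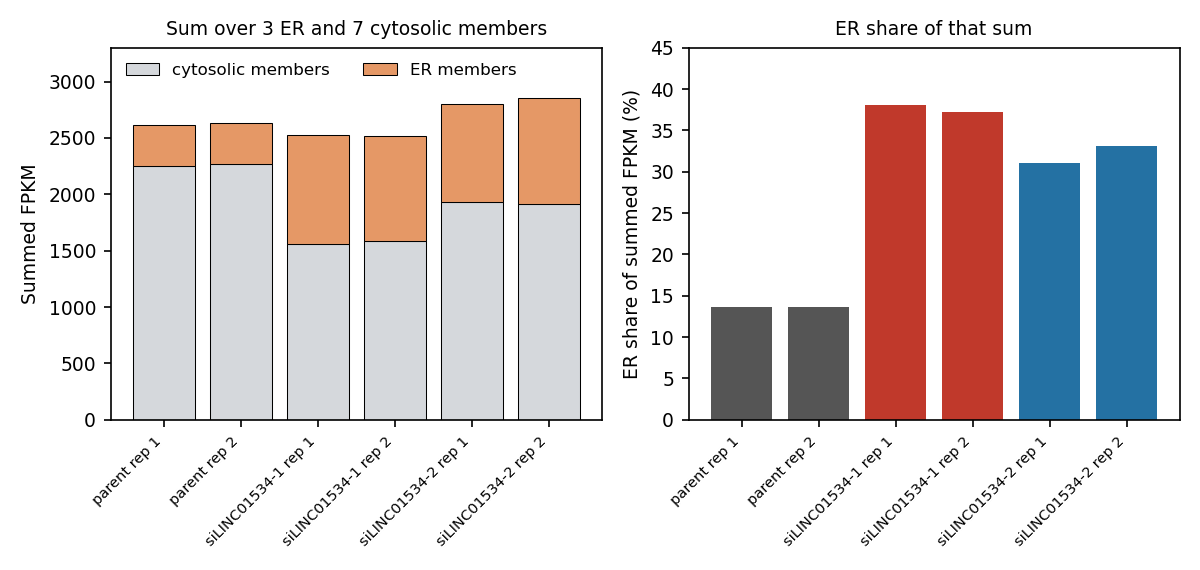
Left, FPKM of each library summed over the 7 cytosolic and the 3 ER genes, as stacked bars from 0. Right, the ER share of that sum in percent, 13.6% to 13.7% in the parent libraries and 31.1% to 38.1% in the siRNA libraries.

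Between the siRNAs, 3 members were called higher with siLINC01534-1 than with siLINC01534-2 and 5 lower, beside 19.5% and 22.3% of all tested genes. HYOU1 was higher by 0.35 (SE 0.0451, adjusted p = 0.00295), HSPA14 by 0.35 (SE 0.0589, adjusted p = 0.00664) and HSPA4L by 0.31 (SE 0.0724, adjusted p = 0.0205) on the log2 scale. HSPA13 was lower by the largest step, -0.74 (SE 0.0536, adjusted p = 0.000477). HSPH1 (-0.36, adjusted p = 0.00244), HSPA8 (-0.31, adjusted p = 0.00124), HSPA4 (-0.24, adjusted p = 0.00937) and HSPA1B (-0.21, adjusted p = 0.0199) were also lower. Without siLINC01534-2 replicate 1 the 8 calls became 5. Thus 4 of the 5 cytosolic genes that fell with both siRNAs fell further with siLINC01534-1. HSPA1A, the other one, differed by 0.01 (95% interval -0.24 to 0.26, adjusted p = 0.957). Some of these calls rested on single libraries. That of HSPA1B was lost without siLINC01534-1 replicate 1 (adjusted p = 0.0963) or 2 (0.0522) and without siLINC01534-2 replicate 1 (0.0524) or 2 (0.0914). That of HSPA4L was lost without siLINC01534-1 replicate 1 (0.102) or 2 (0.0821) or siLINC01534-2 replicate 1 (0.0970), and that of HSPA4 without siLINC01534-2 replicate 1 (0.0544). The differences of HSPA5 turned to -0.003 and -0.049 without siLINC01534-1 replicate 1 or siLINC01534-2 replicate 1, and that of HSPA1A to -0.025 without siLINC01534-2 replicate 1.

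The partners of the HSP70 cycle, with HSP70 relatives and the mitochondrial chaperonin, were taken as lists of known function, 46 genes of which 42 were tested. These lists too were chosen with earlier results of these data known. In the ER list of 8 J-domain proteins and exchange factors, 6 genes were higher and 1 lower with siLINC01534-1, and 6 were higher and 0 lower with siLINC01534-2, with median log2 fold changes of 0.54 and 0.49, beside the 21.8% and 11.1% of all tested genes called higher. DNAJB9, an ER J-domain protein that acts on HSPA5, was at 6.19 and 5.99 FPKM in the parent libraries, at 35.5 and 37.7 FPKM with siLINC01534-1 and at 18.1 and 18.9 FPKM with siLINC01534-2. Its log2 fold changes were 2.41 (SE 0.0527, adjusted p = 2.23e-05) and 1.46 (SE 0.0527, adjusted p = 0.000226). DNAJC3, which also inhibits the stress kinase PERK, rose by 0.77 (adjusted p = 0.000460) and 0.63 (adjusted p = 0.00319). The gene called lower was DNAJB11, a J-domain partner of HSPA5, which was singled out after its values were seen. It was at 70.2 and 73.8 FPKM in the parent libraries, at 50.8 and 52.5 FPKM with siLINC01534-1 and at 105 and 110 FPKM with siLINC01534-2. It thus fell by 0.47 (adjusted p = 0.000789) with the first siRNA and rose by 0.57 (adjusted p = 0.00173) with the second, with a difference of -1.04 between them (adjusted p = 0.000123).

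In the list of 15 cytosolic and nuclear J-domain proteins, 9 genes were lower and 3 higher with siLINC01534-1, and 3 were lower and 3 higher with siLINC01534-2. Over all tested genes 24.5% were lower and 21.8% higher with the first siRNA and 11.8% and 11.1% with the second, so that the 3 of 15 called higher with siLINC01534-1 were near the background. DNAJA1, a main J-domain partner of HSPA8, was at 357 and 348 FPKM in the parent libraries, at 152 and 148 FPKM with siLINC01534-1 and at 326 and 332 FPKM with siLINC01534-2. It fell by 1.23 (adjusted p = 3.70e-05) with siLINC01534-1, and its log2 fold change with siLINC01534-2 was -0.10 (adjusted p = 0.0865). The difference between the siRNAs was -1.13 (adjusted p = 5.87e-05). DNAJA4 was lower with siLINC01534-1 by -0.74 (adjusted p = 0.000284), while DNAJB2 was higher with both siRNAs, by 0.26 (adjusted p = 0.0343) and 0.51 (adjusted p = 0.00913), and DNAJB5 with siLINC01534-1 by 0.68 (adjusted p = 0.0136).

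Of the 10 cytosolic exchange factors and adaptors, 6 were lower and 3 higher with siLINC01534-1, and 2 were lower and 0 higher with siLINC01534-2. Beside the same shares of all tested genes (24.5% and 21.8%, then 11.8% and 11.1%), the 3 called higher and the later 2 called lower were few genes near the background. STIP1, the adaptor between HSP70 and HSP90, was at 308 and 314 FPKM in the parent libraries, at 220 and 233 FPKM with siLINC01534-1 and at 263 and 252 FPKM with siLINC01534-2. It fell with both, by 0.46 (adjusted p = 0.000724) and by 0.27 (adjusted p = 0.0106). STUB1, a ubiquitin ligase that binds HSP70, fell by 0.60 with siLINC01534-1 (adjusted p = 0.00188) and stood at -0.26 with siLINC01534-2 (adjusted p = 0.0548). BAG2 and BAG5, exchange factors of the BAG family, were higher with siLINC01534-1 by 0.35 (adjusted p = 0.0109) and 0.31 (adjusted p = 0.00783), and stood at 0.08 and 0.06 with siLINC01534-2 (adjusted p = 0.451 and 0.481).

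The mitochondrial HSP70 system gave another compartment to set beside the ER and the cytosol. Its list also held HSPD1 and HSPE1, a chaperonin and its partner rather than genes of the HSP70 cycle. Of the 8 genes listed, 2 were higher and 3 lower with siLINC01534-1, and 1 was higher and 5 lower with siLINC01534-2. HSPD1 and HSPE1 were among those called lower with each siRNA. The higher counts were near the shares of all tested genes, 21.8% and 11.1%, and the lower counts stood beside 24.5% and 11.8%. HSPA9, the mitochondrial HSP70, was at 262 and 264 FPKM in the parent libraries, at 305 and 304 FPKM with siLINC01534-1 and at 243 and 237 FPKM with siLINC01534-2. It moved in opposite directions, by 0.21 (adjusted p = 0.00332) and -0.13 (adjusted p = 0.0313), with a difference of 0.34 (adjusted p = 0.000845). HSPD1, the mitochondrial HSP60 chaperonin, was at 1095 and 1062 FPKM in the parent libraries, at 299 and 298 FPKM with siLINC01534-1 and at 879 and 862 FPKM with siLINC01534-2. It fell by 1.85 (adjusted p = 1.17e-05) and by 0.31 (adjusted p = 0.00395). Its partner HSPE1 fell by 0.35 (adjusted p = 0.00483) and by 0.36 (adjusted p = 0.0111), and GRPEL2, a mitochondrial exchange factor, rose by 0.27 with siLINC01534-1 (adjusted p = 0.0482) and stood at 0.24 with siLINC01534-2 (adjusted p = 0.0992).

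A list of 5 further HSP70 family genes held HSPA2, HSPA6, HSPA7, HSPA12A and HSPA12B, and HSPA1L was not analysed here. Of the 5, HSPA12A passed the filter, with 6.64 and 7.06 FPKM in the parent libraries, 8.18 and 7.79 FPKM with siLINC01534-1 and 7.73 and 7.48 FPKM with siLINC01534-2. Its log2 fold changes were 0.19 (adjusted p = 0.0449) and 0.13 (adjusted p = 0.172). HSPA2, an HSP70 of the testis, lay between 0.614 and 1.39 FPKM in all libraries, HSPA12B between 0.201 and 0.438 FPKM, and HSPA6 and HSPA7 between 0 and 0.0889 FPKM.

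**Figure D4:**
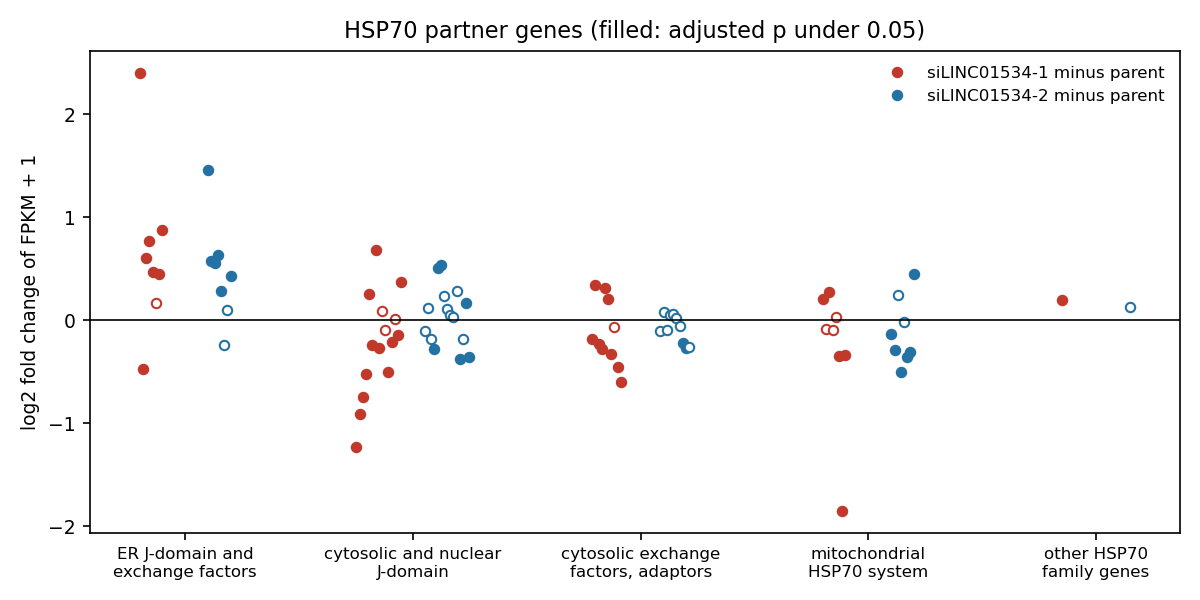
Log2 fold change of FPKM + 1 against the parent cells for each tested gene of the 5 lists of HSP70 partners and relatives, by siRNA, filled where the adjusted p is under 0.05. In the ER list 6 of 8 genes are filled above 0 with each siRNA, while with siLINC01534-1 9 of 15 cytosolic and nuclear J-domain genes are filled below 0.

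Genes with the same promoter letters were also described, whatever their function. Of the 15 tested genes whose promoter held ERSE, HSPA5 included, 12 were higher and 2 lower with siLINC01534-1, and 11 were higher and 0 lower with siLINC01534-2. Without HSPA5 these were 11 and 2, and 10 and 0, of 14. Of 13 tested genes with ERSE-II, HYOU1 included, 4 were higher and 3 lower, and then 5 and 2. Without HYOU1 these were 3 and 3, and 4 and 2, of 12. Of 46 tested genes with the heat shock element, HSPA8 included, 10 were higher and 17 lower, and then 5 and 12. Without HSPA8 these were 10 and 16, and 5 and 11, of 45. The shares of all tested genes were 21.8% higher and 24.5% lower with the first siRNA, and 11.1% and 11.8% with the second. The higher counts of the heat shock element genes were at the background, while their lower counts, 17 and 12 of 46, were above it. The 15 ERSE genes and the 13 ERSE-II genes are few, and no test of these counts was run. A match is a description of the sequence and not a site of binding.

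The genes with profiles most like a member were ranked by the root mean square distance of log2(FPKM + 1), centred on each gene's mean, over the 6 libraries and 12202 other genes. For HSPA5 they were PPP1R15A (distance 0.052), CHAC1 (0.064) and BIRC3 (0.065). BIRC3 was at 0.619 and 0.789 FPKM in the parent libraries. It was at 3.57 and 3.73 FPKM with siLINC01534-1 and at 3.67 and 4.19 FPKM with siLINC01534-2. The log2(FPKM + 1) scale understates the change of so low a gene, so BIRC3 is near HSPA5 on this scale only. PPP1R15A was at 19.5 and 18.7 FPKM in the parent libraries, at 60.0 and 55.5 FPKM with siLINC01534-1 and at 59.1 and 59.7 FPKM with siLINC01534-2. For HSPA8 they were H1F0 (0.017), SFPQ (0.018) and IARS2 (0.019). SFPQ was at 187 and 188 FPKM in the parent libraries, at 130 and 134 FPKM with siLINC01534-1 and at 161 and 160 FPKM with siLINC01534-2, in the order of HSPA8.

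The files carry no read counts, so depth was estimated from genes above 0 in only 1 library, each taken as 1 read. The medians were about 8660000 to 10300000 reads per library, from 29 to 45 genes each, with lower quartiles down to 6260000. By that estimate 9400 to 28000 reads stood behind HSPA5 in a library, 27000 to 40000 behind HSPA8, 420 to 770 behind HSPA13 and 440 to 610 behind HSPA14. All 6 epithelial markers had a mean of at least 1 FPKM, and their sum was 3458 to 3522 FPKM in the parent libraries, 2927 to 2932 with siLINC01534-1 and 3335 to 3521 with siLINC01534-2. The leukocyte markers, of which 0 of 4 had such a mean, summed to 0.0208 to 0.0959, 0.170 to 0.223 and 0.199 to 0.285 FPKM in the same order, and the endothelial markers to 0.110 FPKM or less. Of 4 fibroblast markers 1 had a mean of at least 1 FPKM, and their sum was 3.08 to 3.12 FPKM in the parent libraries, 5.17 to 5.89 with siLINC01534-1 and 3.85 to 4.29 with siLINC01534-2, and the part of these markers in the results was not tested.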

How the data were processed

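RNA of HCT116 cells was sequenced as strand-specific, poly(A)-selected libraries with 75-base single-end reads. The authors mapped them to hg19 with TopHat2 2.0.13 and Bowtie2 2.2.3, used SAMtools 0.1.19, and deposited the FPKM that Cuffnorm (Cufflinks 2.2.1) gave per gene symbol, per the labels' processing notes and the methods. The gene annotation is not given in the sources used here. FPKM scale reads to transcript length and library size. The labels number 2 libraries per group where the methods name 3 cultures, and the extraction kits named differ. Groups came from the labels.

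The values log2(FPKM + 1) were fitted with limma 3.58.1 in R 4.3.3 (1 mean per group over all 6 libraries, eBayes with a trend, 4 contrasts, two-sided, Benjamini-Hochberg over 12203 genes, threshold 0.05). The script was tested on simulated data. Fold values called times the parent level are ratios of mean FPKM without a pseudocount. The genes named are the 10 members, LINC01534, HSPA9 and the other HSP70 relatives, up to 2 increases and 2 decreases per partner list, and the 3 nearest profiles of HSPA5 and HSPA8. The members and lists were chosen with earlier results of these data known. Alternatives were another pseudocount, other filters, centring on the median, a replicate block, no trend, a 2-fold rule, HSPA1A and HSPA1B summed, and each library left out. Python 3.11.15, pandas 2.3.3, numpy 2.4.6 and Biopython 1.88 were used for the rest. Depth was estimated from genes with 1 annotated transcript and a value above 0 in only 1 library, each taken as 1 read. The shared 75-base windows were counted in GENCODE transcripts of GRCh37. The letters of the 3 promoter motifs were set by hand from general knowledge of these elements. RefSeq promoter sequences come from a table of GRCh38.p14.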

Additional observations from a re-analysis of the deposited data

Results flagged for a closer look

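The fold changes of 8 members differed between the siRNAs in the direct limma test, which is what brought them here. The log2 difference, siLINC01534-1 minus siLINC01534-2, was 0.35 for HYOU1, 0.35 for HSPA14 and 0.31 for HSPA4L. It was -0.74 for HSPA13, -0.36 for HSPH1, -0.31 for HSPA8, -0.24 for HSPA4 and -0.21 for HSPA1B. In that comparison 19.5% of all tested genes were called higher and 22.3% lower. HSPA13 stood apart in size, with 11.7 ± 0.607 FPKM with siLINC01534-1 and 20.1 ± 0.529 FPKM with siLINC01534-2 (SD, n = 2 each).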

How the results depend on the processing

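The study's 2-fold rule has no error. Under it 2 members passed for siLINC01534-1, 1 for siLINC01534-2, 2 for the mean of both and 0 between the siRNAs. Over all tested genes the counts were 713, 318, 339 and 574. HSPA5 passed in each comparison with the parent cells. HYOU1 passed with siLINC01534-1 and, at a log2 ratio of 1.003, for the mean of both. No cytosolic member passed. Of the 25 partner genes called for the mean of both, 1 passed 2-fold. The ER minus cytosolic difference from the parent cells, 1.32 for the mean of both, 1.29 for siLINC01534-1 and 1.36 for siLINC01534-2, became 1.41 for siLINC01534-2 with a pseudocount of 0.1, and 1.76, 1.93 and 1.58 from summed FPKM, in which HSPA5 and HSPA8 weigh most.

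When 1 library at a time was left out, the count of members called was 6 to 7 for siLINC01534-1, 4 to 7 for siLINC01534-2, 7 to 9 for the mean of both and 5 to 8 between the siRNAs, and that of partner genes 17 to 21. Over all genes it was 857 to 1931, 2219 to 3689 and 3196 to 4515 for the last 3. Fewer libraries were fitted in each. The log2 fold change of HSPA13 with siLINC01534-1 ranged from -0.036 to 0.062, and the differences between the siRNAs from -0.049 to 0.074 for HSPA5 and from -0.025 to 0.042 for HSPA1A, so that these 3 uncalled values changed sign. A lone library was assumed to vary like the other groups.

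The labels share replicate numbers, but the correlations of deviations were 0.114, 0.027 and -0.046, so that the numbers were not taken to pair the libraries. With a replicate block 6, 8, 8 and 8 members and 5114, 1993, 3892 and 4438 genes were called, and HSPA1A with siLINC01534-1 (adjusted p = 0.0592) and siLINC01534-2 (0.0924), HSPA14 with siLINC01534-2 (0.0573) and HSPA4L for the mean of both (0.0593) were not. Other fits lost HSPA1A with siLINC01534-2 (0.0602 with a pseudocount of 0.1 and 0.0519 without the filter), HSPA4 with siLINC01534-2 (0.0545 without a trend) and HSPA4L for the mean of both (0.0607 without the filter), and the causes were not tested.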
